A study of Mus musculus with 32 samples.

Results

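The microglia preparations of a tauopathy mouse were searched for 10 genes that mark neutrophils, S100a8, S100a9, Ngp, Camp, Ltf, Lcn2, Mmp8, Mmp9, Retnlg and Cxcr2. They were chosen by name, with earlier results of these data known, as genes of a blood cell that carries CD11b. That cell is therefore taken by a CD11b capture. All 10 genes were among the 18588 genes of the deposited table. Transgenic rTg4510 mice carry human tau with the P301L mutation behind a tetracycline-responsive element, together with a CaMKIIα-driven tetracycline transactivator, so that tau is made in forebrain neurons after birth and can be repressed by doxycycline. The control mice (WT, strain 129/FVB F1 in the labels) were littermates without either transgene, so neither transgene alone was represented. All mice were female and were sampled at 2, 4, 6 or 8 months of age. Each library was made from CD11b-captured cells of the pooled forebrains of 8 to 10 animals, and 28 of 32 libraries were used. A group held 4 libraries at the ages of 2 and 6 months, and 3 at the ages of 4 and 8 months after libraries that failed the authors' sequencing quality checks had been set aside.

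Neutrophils are short-lived phagocytes that form in bone marrow and circulate in blood. As they mature they load their cytosol and their granules with antimicrobial and matrix-degrading proteins, in an order in which primary granules come first, then secondary and then tertiary granules, while chemokine receptors that guide them out of the marrow appear late. A healthy forebrain holds few of them, mostly in its vessels, the meninges and the choroid plexus.

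The unit throughout is the authors' log2 gene signal, in which 1 step is a doubling. It is median normalized, with a median of 5.63 over all genes in every library, and it is not scaled for gene length, so the level of 1 gene was not ranked against that of another. Read depth per library is not given in the table. The lowest value of a library lay between 1.23 and 1.92 in the 28 libraries, and Ltf and Mmp8 were the members that came within 3 counts of it, Ltf in 4 rTg4510 libraries and Mmp8 in 2. Differences were tested with limma over all 28 libraries and all 18588 genes, and a gene was called when its Benjamini-Hochberg FDR was under 0.05 and its change was over 1.5 fold. The defining microglia list stood at a mean log2 signal of 10.09 to 10.80 in all 8 groups, and it was lower in rTg4510 at each age. Its means at 2, 4, 6 and 8 months were 10.80, 10.65, 10.67 and 10.48 in WT. In rTg4510 they were 10.59, 10.35, 10.30 and 10.09. In bulk RNA of this kind, fewer neutrophils and less RNA per neutrophil cannot be told apart. Either also cannot be told from a larger share of RNA from other captured cells, because the signal is relative within a library. The study reported more microglia in the older transgenic forebrains, and more RNA per microglia cell than in the control mice. The part of these changes in the neutrophil signals was not tested.

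At 6 months, 9 of the 10 genes were called lower in rTg4510 than in WT, against 8.54% of all genes tested. Cxcr2 was the exception. The falls ranged from 2.34-fold for Mmp9 to 4.45-fold for S100a8, and the median difference over the 10 genes was -1.84 on the log2 scale, beside -0.04 over all genes. At 2 months 0 of the 10 were called lower with limma (background 0.403%), with 1 gene, Mmp9, at an unadjusted p under 0.05, and the median difference was 0.12. At 4 months 1 gene was called (background 4.33%) and at 8 months 8 genes were called (background 5.37%), with median differences of -1.02 and -1.40. When only the 2 groups of an age were fitted, the counts were 0, 8 and 2 at 4, 6 and 8 months. The calls at 8 months lost in that fit were S100a8 (FDR 0.137), Ngp (0.0991), Camp (0.0611), Ltf (0.121), Mmp9 (0.102) and Retnlg (0.0767), and the call lost at 6 months was Mmp8 (0.0513). With all 32 libraries the calls at 8 months of Camp (FDR 0.065) and Retnlg (0.0932) were lost. The count at 8 months was 4 without rTg4510 replicate 1 of that age and 5 without WT replicate 1, and the count at 4 months rose to 5 without rTg4510 replicate 1 of 2 months.

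**Figure D1:**
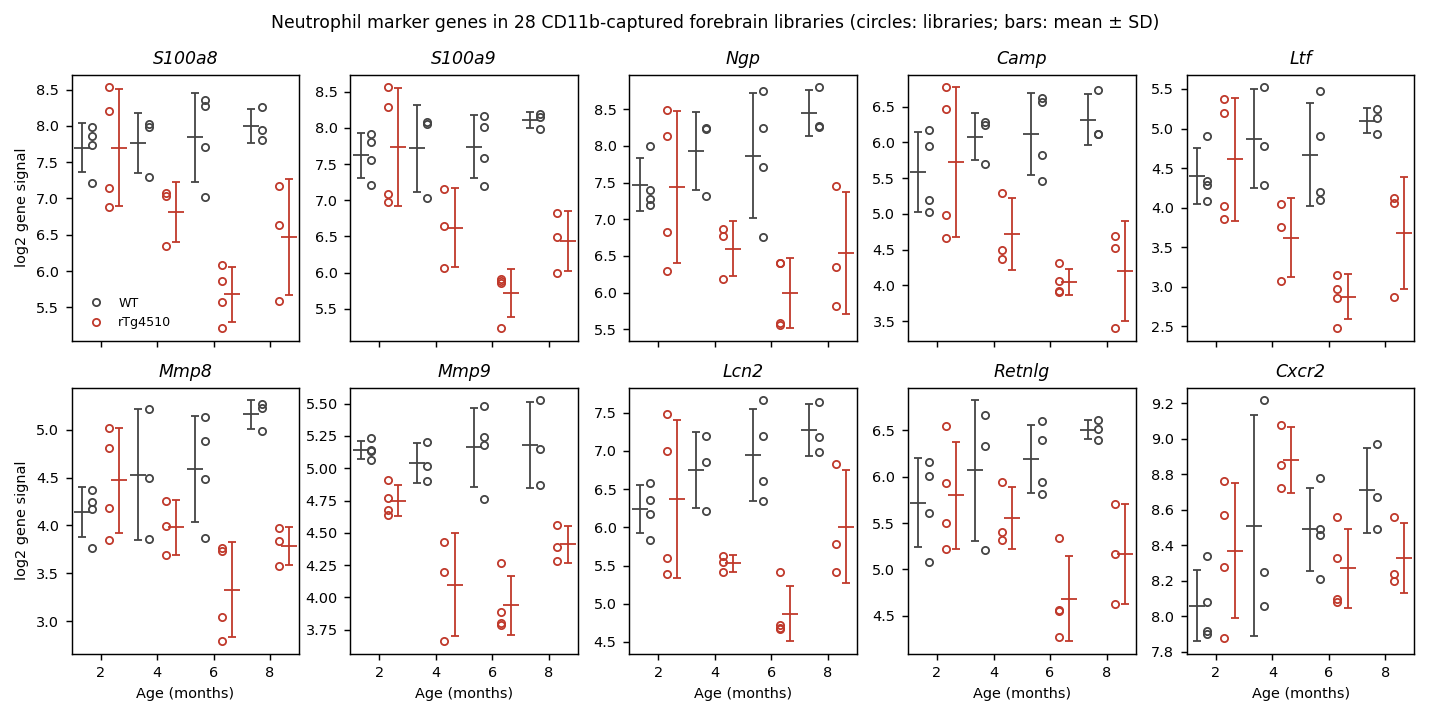
Log2 gene signal (vertical axis, a separate scale for each gene) of the 10 neutrophil genes against age in months (horizontal axis), with 1 circle per library, WT in grey and rTg4510 in red, and bars at the mean ± SD of each group. At 6 months the rTg4510 circles lie below every WT circle in all panels but Cxcr2. The share of all genes without overlap was not counted, so this is a description of the panels only. At 2 months the 4 rTg4510 libraries of most panels split into a higher and a lower pair.

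The promoter regions of the genes are given for S100a8, S100a9, Ngp, Ltf and Camp, which moved together, and for Cxcr2, whose deviations followed S100a8 least after Mmp9. Lcn2 moved with the first of these as well, and its stretch outside exons, 53 bases long, is not printed. RefSeq held a window upstream of the start site for 9 of the 10 genes (none for Mmp9), and the stretches printed lie within the 250 bases before the start and outside annotated exons (build GRCm38.p6, read 5′ to 3′ on the strand of the gene). Capitals mark TTNNGNAA, a spelling of the C/EBP site, found on either strand, and the stretches of Camp and Cxcr2 hold none.
S100a8 (chr3:90668821-90668977, plus strand): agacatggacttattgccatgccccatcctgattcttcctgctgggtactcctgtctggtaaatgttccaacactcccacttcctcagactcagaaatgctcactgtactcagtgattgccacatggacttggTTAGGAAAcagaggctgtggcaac
S100a9 (chr3:90695722-90695971, minus strand): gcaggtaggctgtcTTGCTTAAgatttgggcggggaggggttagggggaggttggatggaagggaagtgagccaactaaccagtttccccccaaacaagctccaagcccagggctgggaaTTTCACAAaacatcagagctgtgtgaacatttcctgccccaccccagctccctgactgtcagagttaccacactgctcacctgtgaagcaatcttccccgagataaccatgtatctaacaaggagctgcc
Ngp (chr9:110419558-110419746, plus strand): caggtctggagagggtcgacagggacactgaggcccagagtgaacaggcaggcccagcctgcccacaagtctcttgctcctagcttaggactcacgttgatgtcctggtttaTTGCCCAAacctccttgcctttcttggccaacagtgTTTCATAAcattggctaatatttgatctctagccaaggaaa
Ltf (chr9:111019042-111019270, plus strand): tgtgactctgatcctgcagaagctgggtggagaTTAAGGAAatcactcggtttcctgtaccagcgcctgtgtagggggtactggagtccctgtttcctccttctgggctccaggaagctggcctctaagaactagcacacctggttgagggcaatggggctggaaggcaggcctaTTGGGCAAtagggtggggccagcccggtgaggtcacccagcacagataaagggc
Camp (chr9:109849618-109849706, minus strand): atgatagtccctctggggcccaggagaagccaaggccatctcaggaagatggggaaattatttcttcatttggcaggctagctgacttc
Cxcr2 (chr1:74153744-74153988, plus strand): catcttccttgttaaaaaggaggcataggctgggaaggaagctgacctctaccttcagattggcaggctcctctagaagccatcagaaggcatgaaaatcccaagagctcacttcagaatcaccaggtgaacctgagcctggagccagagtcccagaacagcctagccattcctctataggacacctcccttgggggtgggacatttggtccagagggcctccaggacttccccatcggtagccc

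C/EBP factors drive the granule genes as neutrophils mature. The letters TTNNGNAA occurred in the 250 bases of 7 of the 9 genes (all but Camp and Cxcr2) and in 36.8% of 32851 RefSeq windows of the same length. The narrower TTNNGCAA, which lies within the first spelling, occurred in 6 of 9 (S100a9, Ngp, Ltf, Lcn2, Mmp8 and Retnlg) and in 9.56% of all windows. The core letters AGGAAG of ETS factors such as PU.1 occurred in 6 of 9 genes and in 29.5% of windows, and the longer GAGGAAGT, which contains them, in S100a8 and Mmp8 and in 2.44% of windows. TATAAA was found in S100a8 alone among the 9 (12.4% of windows). A loose NF-kappaB spelling, GGG and CC with any 5 bases between them, occurred in 3 of 9 genes (Cxcr2, Lcn2 and Ltf) and in 45.8% of windows. Both strands were read, the spellings were chosen after the windows had been looked at, and a match describes letters and not binding.

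S100a8 and S100a9 encode the subunits of calprotectin, a calcium-binding protein that fills the neutrophil cytosol and withholds zinc and manganese from microbes. Both lie on chromosome 3 (S100a8 at chr3:90669071-90670034, S100a9 at chr3:90692630-90695721, GRCm38.p6). In WT the log2 signal of S100a8 was 7.86, 7.74, 7.21 and 7.98 in replicates 1 to 4 at 2 months. It was 8.02, 7.29 and 7.98 in replicates 1, 2 and 4 at 4 months. At 6 months the 4 WT replicates were at 7.02, 8.28, 7.71 and 8.35, and at 8 months the 3 were at 8.26, 7.94 and 7.81. WT therefore stayed in a range of 7.02 to 8.35 over all ages.

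In rTg4510 S100a8 was at 8.54, 8.20, 7.15 and 6.88 at 2 months. It was at 7.07, 7.04 and 6.34 at 4 months, and at 5.86, 5.58, 6.08 and 5.21 at 6 months. At 8 months it was at 5.59, 6.64 and 7.17. Replicates 1 and 2 at 2 months were above every WT library of that age and replicates 3 and 4 below them, so the means of the genotypes were both 7.70 while the SD was 0.802 in rTg4510 and 0.342 in WT (n = 4 each). The same split of the 4 libraries around WT was seen in S100a9, Ngp, Camp, Ltf and Lcn2. From 4 months on the genotypes did not overlap in S100a8 at any age.

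The difference of S100a8 was -0.95 at 4 months (SE 0.444, FDR 0.138, limma with Benjamini-Hochberg adjustment), which was not called. At 6 months S100a8 fell by 2.16 on the log2 scale, to 5.68 ± 0.376 from 7.84 ± 0.617 (SD, n = 4 each, FDR 0.000142). At 8 months it was lower by 2.90-fold (log2 difference -1.54, SE 0.444, FDR 0.0131, n = 3 each).

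S100a9 followed S100a8 library by library. The log2 difference between the 2 genes had an SD of 0.201 over the 28 libraries, while S100a8 alone had an SD of 0.935. S100a9 at 6 months was at 7.20, 8.01, 7.59 and 8.16 in WT and at 5.86, 5.91, 5.89 and 5.23 in rTg4510, with no overlap. The fold was 4.06 (log2 difference -2.02, SE 0.349, FDR 9.88e-05). It was called again at 8 months (-1.67, SE 0.403, FDR 0.00349), and at 4 months its difference of -1.10 had an FDR of 0.0546, with rTg4510 replicate 2 (7.16) above the lowest WT library (7.03).

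A further 4 of the genes encode proteins of the secondary granules. Ngp (chr9:110419808-110423012) encodes neutrophilic granule protein, Camp (chr9:109847377-109849456) the precursor of the antimicrobial peptide CRAMP, Ltf (chr9:111019292-111042766) the iron-binding lactoferrin, and Lcn2 (chr2:32384637-32387739) a lipocalin that binds bacterial siderophores. Lcn2 is known to be induced in reactive astrocytes as well.

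Ngp at 6 months was at 6.76, 8.25, 7.71 and 8.75 in WT and at 5.56, 6.40, 6.41 and 5.59 in rTg4510. WT replicate 1 was the lowest WT library and still above every rTg4510 library. The gene was 3.69-fold lower (log2 difference -1.88, SE 0.472, FDR 0.00367), and at 8 months the difference was of the same size (-1.91, SE 0.545, FDR 0.0121).

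Camp at 6 months was at 5.46, 6.62, 5.82 and 6.57 in WT and at 4.06, 3.93, 4.32 and 3.91 in rTg4510. The spread was smaller in rTg4510, with an SD of 0.187 against 0.573 in WT, and the genotypes did not overlap. The differences were -2.06 at 6 months (SE 0.427, FDR 0.000665) and -2.12 at 8 months (SE 0.493, FDR 0.00256). At 4 months, where the genotypes did not overlap either, the difference of -1.36 had an FDR of 0.0521 and was not called.

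Ltf at 6 months was at 4.20, 4.90, 4.09 and 5.47 in WT and at 2.97, 2.47, 3.15 and 2.86 in rTg4510. Replicates 1, 2 and 4 of rTg4510 were within 3 counts of the lowest value of their library, so this gene was near the limit of the measurement. The difference was -1.80 at 6 months (SE 0.388, FDR 0.000997). At 8 months it was -1.42 (SE 0.449, FDR 0.0229), and with the replicate number as a block the FDR at 8 months was 0.0804 and the call was lost.

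Lcn2 at 6 months was at 6.34, 7.20, 6.60 and 7.67 in WT and at 4.68, 4.67, 5.41 and 4.72 in rTg4510. Replicates 1, 2 and 4 of rTg4510 lay close together and replicate 3 stood above them, still below every WT library. The fold was 4.23 (log2 difference -2.08, SE 0.413, FDR 0.00044). At 8 months Lcn2 was at 7.64, 7.18 and 6.98 in WT and at 5.41, 5.78 and 6.83 in rTg4510, and the difference of -1.26 (SE 0.477) had an FDR of 0.0583 and was not called.

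Mmp8 (chr9:7558429-7568486) encodes the neutrophil collagenase and Mmp9 (chr2:164940326-164955850) gelatinase B, a protease of the tertiary granules that other brain cells can also make. Mmp8 at 6 months was at 3.87, 5.13, 4.49 and 4.88 in WT and at 3.04, 3.77, 3.73 and 2.79 in rTg4510. The difference was -1.26 (SE 0.314, FDR 0.00352), a fold of 2.40, and at 8 months it was -1.37 (SE 0.363, FDR 0.00717). Replicates 1 and 4 of rTg4510 at 6 months were within 3 counts of the lowest value.

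Mmp9 was the gene whose genotypes did not overlap at any of the 4 ages. At 2 months it was at 5.14, 5.06, 5.23 and 5.13 in WT and at 4.91, 4.68, 4.77 and 4.64 in rTg4510, a difference of -0.39 (SE 0.167) with an unadjusted p of 0.0289 and an FDR of 0.224. At 4 months it was the gene called, at 5.20, 4.90 and 5.02 in WT and 3.66, 4.43 and 4.20 in rTg4510.

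The difference of Mmp9 at 4 months was -0.94 (SE 0.192, FDR 0.000895), and the call was lost when only the 2 groups of 4 months were fitted (FDR 0.0972). At 6 months the difference was -1.22 (SE 0.167, FDR 5.31e-06) and at 8 months -0.78 (SE 0.192, FDR 0.00427). The SE of Mmp9 was the smallest of the 10 genes, and its WT means stayed between 5.04 and 5.18.

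Retnlg (chr16:48872608-48874498) encodes resistin-like gamma, a protein secreted by myeloid cells. At 6 months it was at 5.94, 6.60, 6.40 and 5.81 in WT and at 4.55, 4.56, 5.34 and 4.27 in rTg4510, with no overlap. The difference was -1.51 (SE 0.344, FDR 0.00166), a fold of 2.84. At 8 months it was -1.34 (SE 0.398, FDR 0.0156), and at 4 months -0.52 (SE 0.398, FDR 0.391).

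Cxcr2 (chr1:74153994-74161246) encodes the receptor for CXCL1, CXCL2 and related chemokines that releases neutrophils from the marrow and draws them into tissue. Cells of the oligodendrocyte lineage are known to carry it too. At 6 months Cxcr2 was at 8.21, 8.78, 8.46 and 8.49 in WT and at 8.56, 8.10, 8.08 and 8.33 in rTg4510. The genotypes overlapped at all 4 ages. The differences were 0.31, 0.37, -0.22 and -0.38 at 2, 4, 6 and 8 months, with FDRs of 0.548, 0.323, 0.471 and 0.307. At 6 months the 95% interval of the difference ran from -0.67 to 0.24 and did not include a fall of the size of any other member.

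**Figure D2:**
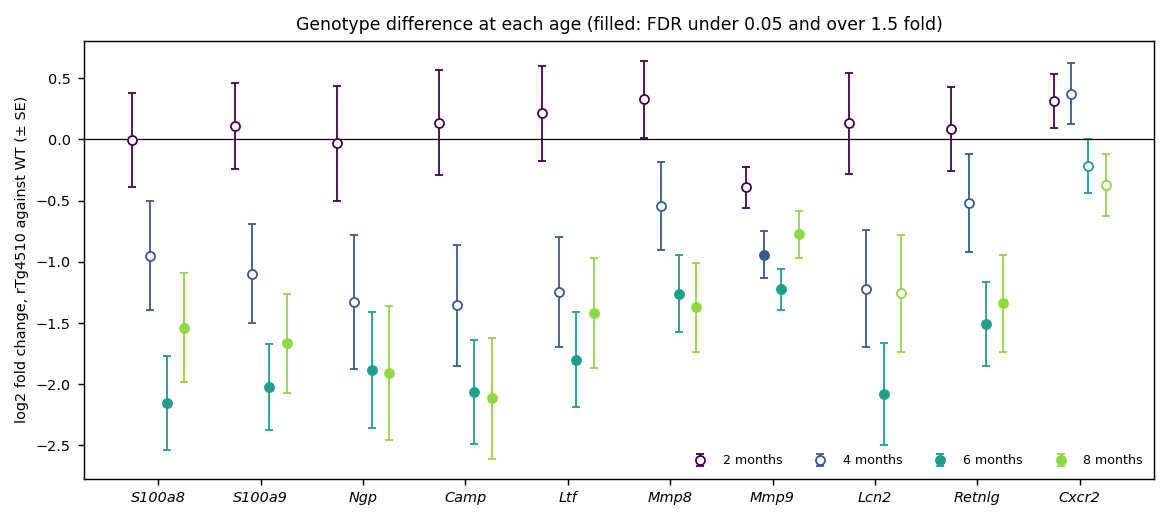
Log2 difference of rTg4510 from WT (vertical axis, ± SE from the fit) for each of the 10 genes (horizontal axis) at 2, 4, 6 and 8 months, left to right in 4 colours, with filled circles where the gene was called. There are 9 filled genes at 6 months and 8 at 8 months, Mmp9 is the filled gene at 4 months, and Cxcr2 stays between -0.38 and 0.37.

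Within WT the genes were compared between ages. With limma no gene was called higher at 4, 6 or 8 months than at 2 months (0 of 10 each time, with 0, 0 and 4 genes at an unadjusted p under 0.05), and the backgrounds were 0.0377%, 0.253% and 0.533%. The median differences were 0.42, 0.41 and 0.72, while the medians over all genes were 0.02, 0 and -0.04. The estimates at 8 months were 1.03 for both Mmp8 (SE 0.34, FDR 0.0928) and Lcn2 (SE 0.446, FDR 0.207), 0.79 for Retnlg (SE 0.372, FDR 0.249) and 0.65 for Cxcr2 (SE 0.236, FDR 0.126). These 3 comparisons share the WT libraries of 2 months.

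Within rTg4510 the genes fell between 2 and 6 months. The number called lower was 1 of 10 at 4 months, Mmp9 (background 2.36%), 9 of 10 at 6 months (background 6.56%) and 3 of 10 at 8 months (background 4.78%). S100a8 and S100a9 both had a difference of -2.01 at 6 months (SE 0.384 and 0.349, FDR 0.000481 and 0.000177), and Camp fell by 1.67 (SE 0.427, FDR 0.00568). At 8 months S100a8 (-1.23, FDR 0.0387), S100a9 (-1.29, FDR 0.0169) and Camp (-1.52, FDR 0.0214) were still called. With only the compared groups fitted the counts were 0, 4 and 0 at 4, 6 and 8 months, and with all 32 libraries they were 2, 6 and 2. The count at 8 months was 0 when rTg4510 replicate 1 or 2 of 2 months, or replicate 1 of 8 months, was left out. These comparisons share the rTg4510 libraries of 2 months, of which replicates 1 and 2 held the highest values in the called genes other than Mmp9.

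Whether the genotype effect itself changed with age was tested as the difference of the differences. Against the effect at 2 months, 0 genes were called lower with limma at 4 months (5 at an unadjusted p under 0.05, background 0.893%). At 6 months 8 were called (background 2.97%): S100a8, S100a9, Camp, Ltf, Lcn2, Mmp8, Mmp9 and Retnlg. At 8 months 3 were called (background 1.85%): S100a9, Camp and Mmp8. The estimate at 6 months was -1.85 for Ngp (SE 0.667, FDR 0.0755), which was not called, and -0.53 for Cxcr2 (SE 0.308, FDR 0.306). With the replicate number as a block, 5 genes were called at 6 months and 1 at 8 months. The count at 8 months was 0 without rTg4510 replicate 1 or 2 or WT replicate 3 of 2 months, or without WT replicate 1 of 8 months.

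The genes also varied together within groups. Each library was set against the mean of its own group, so that neither genotype nor age entered, and the deviations of each gene were compared with those of S100a8 over the 28 libraries. Pearson's r was 0.921 for S100a9 (Spearman's rho 0.877), 0.916 for Ngp (0.904), 0.911 for Camp (0.876), 0.905 for Lcn2 (0.924) and 0.864 for Ltf (0.877). For Mmp8 and Retnlg it was 0.632 (0.574) and 0.623 (0.625). Cxcr2 had an r of 0.42 (rho 0.302) and Mmp9 of -0.128 (rho -0.144).

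Without the 2 libraries whose S100a8 deviations were farthest from the median, WT replicate 1 of 6 months and rTg4510 replicate 1 of 8 months, r was 0.93 for S100a9, 0.90 for Ngp, 0.637 for Mmp8, 0.384 for Cxcr2 and -0.055 for Mmp9. The values of a library share its capture, its depth and its normalization, so these correlations are given as a description.

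**Figure D3:**
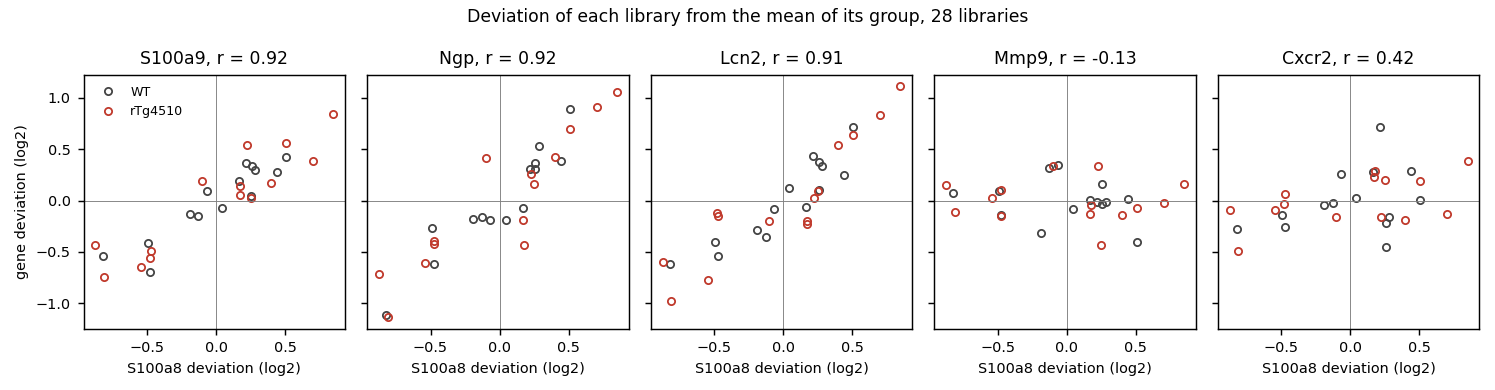
Deviation of each library from the mean of its group (log2), S100a8 on the horizontal axis and 5 other genes on the vertical axes, with 1 circle per library (28 in each panel, WT grey, rTg4510 red) and Pearson's r above each panel. S100a9, Ngp and Lcn2 follow the diagonal in both genotypes, while Mmp9 and Cxcr2 do not.

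Among all genes of the table, 5 of the 10 most like S100a8 were other members and 7 of the 100 most like it. For Mmp9 and for Cxcr2 the numbers were 0 and 0. The other genes most like S100a8 were led by Chil3 (r = 0.811), a chitinase-like protein of neutrophils and macrophages, Mrgpra2a (0.81) and Mrgpra2b (0.769), near-identical receptor genes whose reads cannot be assigned with certainty, Asb10 (0.73) and 4930562F07Rik (0.713). Next were Cd177 (0.708), a neutrophil surface protein, Rora (0.707), Gm45915 (0.698), Ccdc107 (0.693) and Elane (0.675), neutrophil elastase. The genes most like Mmp9 were Ly6c1 (0.782), Cacna2d1 (0.763) and Gm5575 (0.754), and those most like Cxcr2 were Chd5 (0.771), Wfikkn2 (0.768) and Snap91 (0.732). Retnlg was most like Itgb7 (0.742), Camta2 (0.718) and Akna (0.71).

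The log2 difference between a gene and S100a8 was read for its change between groups, not for its size. The mean of Cxcr2 minus S100a8 on the log2 scale was 0.36, 0.74, 0.65 and 0.71 in WT at 2, 4, 6 and 8 months and 0.68, 2.07, 2.58 and 1.87 in rTg4510. The mean of Ltf minus S100a8 stayed between -3.30 and -2.78 in the 8 groups. The 4 granule genes Ngp, Camp, Ltf and Lcn2 had SDs of this difference over libraries of 0.344, 0.312, 0.308 and 0.386, against 0.668 for Mmp9 and 0.917 for Cxcr2.

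Other genes of the lineage were read from lists. Of 13 other granule and secreted genes in the table, 7 were called lower and 1 higher at 6 months (8.54% and 11.3% of all genes were called lower and higher), with a median of -1.12. Pglyrp1, an antimicrobial granule protein, fell by 1.62 (SE 0.381, FDR 0.00222) and Chil3 by 1.45 (SE 0.485, FDR 0.0254), and Cd177 had a difference of -1.12 (SE 0.427, FDR 0.0485), with 3 of 4 rTg4510 libraries within 3 counts of the lowest value. Olfm4, a secondary granule protein of a subset of neutrophils, rose by 1.11 (SE 0.274, FDR 0.00317). At 4 and 8 months 1 and 2 of the 13 were called lower. The deviations of S100a8 had an r of 0.808 with the mean of this list.

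The primary granule genes in the table, Elane and Mpo (myeloperoxidase), were both called lower at 6 months, where all 4 rTg4510 libraries were within 3 counts of the lowest value for both genes, so no fold is given. Their WT means at 6 months were 3.65 ± 1.21 and 4.07 ± 1.47 (SD, n = 4), and 2 and 1 of the WT libraries were near the lowest value as well. Of the 8 genes of this list, 6 were not found in the table by symbol, among them Prtn3, Ctsg, Cebpe and Gfi1. Ly6g, the surface marker that defines mouse neutrophils, was at 3.63 ± 0.786 in WT and 2.43 ± 0.735 in rTg4510 at 6 months (difference -1.20, SE 0.628, FDR 0.15) and was near the lowest value in 1 and 3 of 4 libraries.

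Of 9 surface receptor genes in the table, Ly6g among them, 1 was called lower and 0 higher at 6 months, with a median of -0.23. At 8 months 0 were called in either direction, with a median of 0.24. The shares of all genes called lower were 8.54% and 5.37% at these ages. Csf3r, the receptor for granulocyte colony-stimulating factor, had means of 8.85 to 9.42 in the 8 groups and a difference of 0.45 at 6 months (SE 0.0706, FDR 3.38e-05), under the 1.5-fold limit. Of 6 transcription factors 1 was called each way at 6 months. Cebpd was lower (-0.89, SE 0.112, FDR 1.93e-06), Cebpb higher (0.63, SE 0.19, FDR 0.0137), and Spi1 was at a difference of 0.13 (FDR 0.267). Bulk RNA does not show which of the captured cells gave the signals of these receptors and factors.

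Of 8 ligands and protein partners of the members 1 was called each way at 6 months. Cxcl1 and Cxcl2, ligands of CXCR2, had differences of 0.53 (SE 0.469, FDR 0.415) and 0.89 (SE 0.474, FDR 0.157) at 6 months, and neither was called at any age. Timp2, an inhibitor of matrix metalloproteinases, was higher at 4, 6 and 8 months (differences of 1.23, 1.34 and 1.34, FDR 7.96e-11, 1.17e-12 and 2.03e-11). Ager, a receptor that binds S100 proteins, fell by 0.74 at 6 months (SE 0.234, FDR 0.018), and Tlr4, another receptor for calprotectin, had a difference of -0.41 (SE 0.111, FDR 0.0067), under the 1.5-fold limit.

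Markers of the other cells that a capture could hold were counted at 6 months too, where 8.54% of all genes were called lower and 11.3% higher. Several of these lists held genes called in both directions. Of 10 monocyte genes 4 were called lower and 3 higher, and the mean of the list ranged from 4.82 to 5.09 in WT libraries and from 4.34 to 5.08 in rTg4510. Ly6c2, which marks classical monocytes, had a difference of -0.86 (SE 0.326, FDR 0.0477), and Ccr2 of 0.21 (FDR 0.546). Of 8 T and NK cell genes 3 were lower and 1 higher (list means 3.67 to 4.72 in WT, 3.34 to 3.82 in rTg4510), and of 7 B cell genes 1 was lower and 1, Cd22, higher (5.87 to 6.34 and 5.82 to 6.13). Of 4 red blood cell genes 1 was lower (4.08 to 5.40 and 2.73 to 4.17), with Hba-a1 at a difference of -1.28 (SE 0.655, FDR 0.143), a gene with a near-identical copy.

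Border macrophage genes had 2 of 6 called lower (list means 7.29 to 7.83 in WT, 6.84 to 7.34 in rTg4510) and endothelial genes 2 of 6 lower and 1 higher (4.15 to 4.91 and 3.83 to 4.30). The microglia list had 3 of 9 lower (10.61 to 10.76 and 10.19 to 10.37), among them Itgam, which encodes the CD11b used for the capture, at -0.62 (SE 0.0542, FDR 8.7e-09). Astrocyte genes had 2 of 7 lower and 1 higher, oligodendrocyte genes 1 of 8 each way, and neuron genes 1 of 3 lower. The median log2 differences at 6 months were -1.18 for oligodendrocyte genes, -1.17 for red blood cell genes and -0.94 for neuron genes. They were -0.81 for endothelial, -0.79 for T and NK cell, -0.66 for astrocyte and -0.57 for microglia genes. Monocyte, border macrophage and B cell genes had medians of -0.47, -0.38 and -0.34. The median was -1.12 for the other neutrophil granule genes and -0.04 over all genes. The part of these cells, and of the capture, in the lower neutrophil genes was not tested.

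Within groups, the deviations of S100a8 had an r of 0.593 with the monocyte list, 0.004 with T and NK cell genes, -0.005 with red blood cell genes and -0.11 with microglia genes. Mmp9 had its highest values with the border macrophage list (0.523) and the endothelial list (0.52). Cxcr2 had an r of 0.574 with the other granule genes and of -0.47 with the microglia list. Its r was 0.454 with the transcription factors, 0.448 with the surface receptors, 0.411 with red blood cell genes and 0.34 with oligodendrocyte genes. With the border macrophage list it was -0.324.

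**Figure D4:**
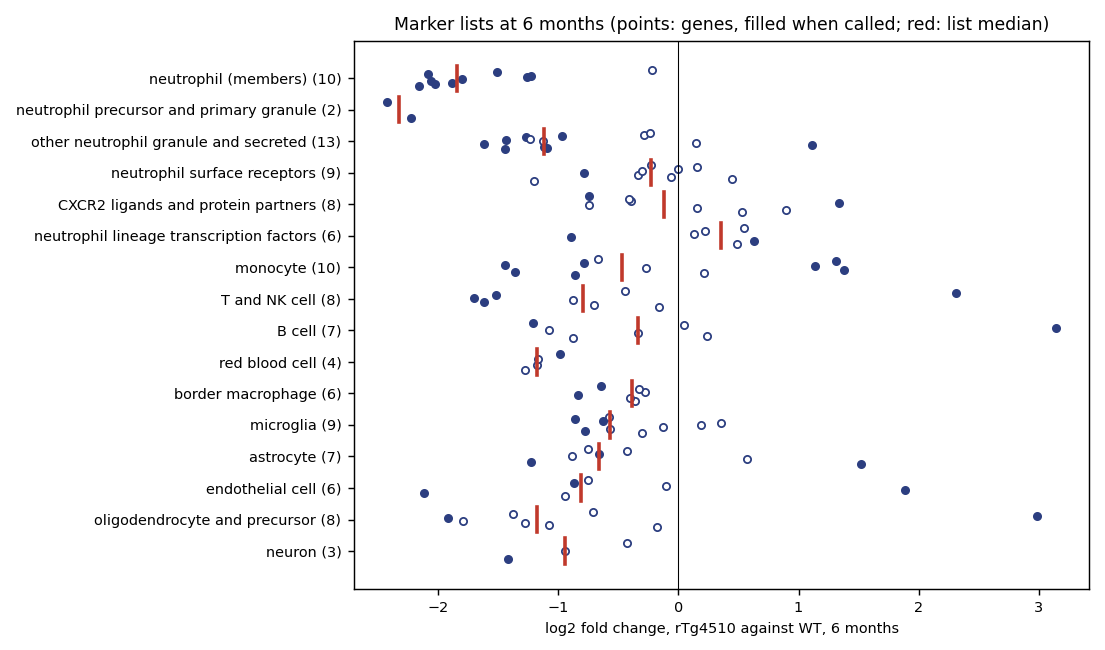
Log2 difference of rTg4510 from WT at 6 months (horizontal axis) for every gene in the table of 16 marker lists (vertical axis, number of genes in parentheses), 1 circle per gene, filled where called, with a red bar at the median of the list. The neutrophil genes at the top have a median of -1.84, and the lists of surface receptors and transcription factors have medians of -0.23 and 0.36. The other granule genes are at -1.12, oligodendrocyte genes at -1.18, red blood cell genes at -1.17 and neuron genes at -0.94.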

How the data were processed

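RNA of CD11b-captured forebrain cells had been sequenced (HiSeq2000, paired ends, after NuGEN Ovation amplification), and the authors deposited 1 log2 signal per gene and library. Per the study's methods, the authors added up the reads of each exon, dropped an exon if over 80% of samples had under 10 counts for it, combined exons into a gene signal by a robust linear model and median normalized on the log2 scale. The labels name the build GRCm38, and the aligner, counter, strand setting and annotation are not given in the sources used here. Entrez identifiers were matched to RefSeq symbols (95.9% of genes). The log2 steps between low values were those of log2(count + 1.5), and a value was taken as within 3 counts of the lowest on that reading, which is inferred.

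Groups came from the labels, with 0 columns unused. limma 3.58.1 (R 4.3.3) fitted 8 group means to the 28 libraries with the variance of each gene on its own (20 residual degrees of freedom), after the factorial model of the study, with Benjamini-Hochberg adjustment over 18588 genes in each of 13 comparisons. Each library is a separate pool, and the p-values measure the spread between pools. The members and lists were chosen with earlier results of these data known. Named genes were all members, of each list the genes that define a cell type and examples of the largest differences, and the genes most like each member over the libraries. On simulated data for the 6-month comparison (18588 genes, 200 of them changed), log2 changes of 1, 2 and 3 were called in 60%, 92.6% and 95.5% of genes. Of the unchanged genes 4 were called. The changed genes were drawn at random and the noise was independent between genes. These rates therefore do not describe members that vary together over libraries. Same-numbered libraries of the genotypes deviated together at 6 months (r of 0.131 to 0.153 across genes) and 8 months (0.15 to 0.291) and less clearly at 2 and 4 months (0.065 to 0.167, and -0.1 to 0.124), and what the number marks is not stated. Alternatives were the fit of the compared groups alone, all 32 libraries, moderated variances, quantile normalization, a filter at the 25th percentile of signal, a replicate block, and leaving out each library.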

Additional observations from a re-analysis of the deposited data

Results flagged for a closer look

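For 8 genes the genotype effect at 6 months differed from that at 2 months in the test of the difference itself (limma, Benjamini-Hochberg adjustment): S100a8 by -2.15 (FDR 0.00971), S100a9 by -2.13 (FDR 0.00514), Camp by -2.20 (FDR 0.0173), Ltf by -2.01 (FDR 0.0168), Lcn2 by -2.21 (FDR 0.0135), Mmp8 by -1.59 (FDR 0.0196), Mmp9 by -0.83 (FDR 0.0211) and Retnlg by -1.60 (FDR 0.0324). For 3 genes the effect at 8 months also differed from that at 2 months: S100a9 by -1.78 (FDR 0.038), Camp by -2.25 (FDR 0.0309) and Mmp8 by -1.70 (FDR 0.0268). Both sets share the libraries of 2 months, where rTg4510 replicates 1 and 2 were above and replicates 3 and 4 below every WT library in S100a8, S100a9, Ngp, Camp, Ltf and Lcn2.

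In rTg4510 at 6 months, single libraries stood apart from the other 3 by Dixon's criterion: S100a9 in replicate 4, at 5.23 against 5.86 to 5.91 (ratio 0.935), and Lcn2 in replicate 3, at 5.41 against 4.67 to 4.72 (ratio 0.931). The criterion was applied to 40 groups of 4 libraries, and chance alone gives about 1 in 20.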

How the results depend on the processing

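No estimate of the genotype difference that was called turned its direction under any alternative. The counts of members called moved as follows. With only the compared groups fitted, the genotype counts at 4 and 8 months went from 1 to 0 and from 8 to 2, the rTg4510 counts at 4, 6 and 8 against 2 months from 1, 9 and 3 to 0, 4 and 0, and the change of the effect at 8 months from 3 to 1. With all 32 libraries, the genotype count at 4 months was 4, the rTg4510 count at 4 against 2 months was 2, and the changes of the effect at 6 and 8 months were 3 and 0. Moderated variances gave 4 at 4 months and 2 for rTg4510 at 4 against 2 months, and the signal filter, which removed Ltf and Mmp8 and left 8 members, gave 3 and 2. With the replicate block the changes of the effect were 5 at 6 months and 1 at 8 months, and of the genotype calls Ltf at 8 months was lost. The other list genes called went from 3 to 1 at 2 months both with the compared groups alone and with all 32 libraries, from 41 to 20 at 6 months with the filter, and from 20 to 13 at 8 months with either the compared groups alone or the filter. The cause of these moves was not tested.

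Over 28 fits that each omitted 1 library, the genotype counts ranged over 0 to 0, 1 to 5, 9 to 9 and 4 to 9 at 2, 4, 6 and 8 months, the WT counts over 0 to 0, the rTg4510 counts over 0 to 2, 7 to 9 and 0 to 3, and the changes of the effect over 0 to 0, 7 to 9 and 0 to 4. The rTg4510 count at 4 against 2 months was 0 without replicate 1 of 4 months. The number of other members among the 10 genes most like S100a8 was 5 with group means removed and 5 with values as deposited. Read depth is not given in the table, so low values of Ltf, Mmp8, Cd177, Ly6g, Elane and Mpo are limited by counts that cannot be stated.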

Other observations

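The 4 libraries that had failed the authors' quality checks entered only the fits of all 32 libraries. In replicate 3 of 4 months S100a8 was at 7.26 in WT and 6.80 in rTg4510, Ngp at 7.28 and 4.10, Lcn2 at 6.75 and 3.16, Retnlg at 5.31 and 3.38, and Mmp9 at 5.60 and 2.67. Cxcr2 was at 7.93 and 8.65 in the same libraries. In replicate 4 of 8 months S100a8 was at 7.49 in WT and 6.64 in rTg4510, Ngp at 7.83 and 7.11, and Camp at 4.43 and 3.55. The values of Lcn2, Retnlg, Mmp9, Camp, Ltf and Mmp8 in rTg4510 replicate 3 of 4 months were within 3 counts of the lowest value of that library. In that library S100a8 was within the range of the kept libraries of its group while Ngp, Lcn2, Retnlg and Mmp9 were below it.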
